A study of Mus musculus with 60 samples.

Results

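The 9 genes Shank1, Shank2, Shank3, Homer2, Homer3, Dlg2, Dlg4, Dlgap1 and Dlgap3 encode scaffold proteins of excitatory synapses. They were taken by gene symbol from 10 deposited comparison tables, and all 9 were present in all 10, among 13986 genes found in any table and 13394 found in every table. Poly(A)-enriched RNA was sequenced from whole, dorsal and ventral hippocampus of wild type C57BL/6 mice at postnatal day 105, in 60 libraries that form 12 groups of 5. In each region, mice left in the Homecage were the reference for mice taken 45 minutes after Handling, Restraint or Swim, so the design asks which transcripts each treatment moved and whether both ends of the hippocampus moved alike. The labels do not say whether dorsal and ventral libraries came from the same mice. The tables hold the mean estimated count of each group and the authors' fold change and test, so no value stands for a single mouse and the replicate error is carried by the authors' p-value.

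Beneath the membrane of a dendritic spine lies the postsynaptic density, a protein lattice that holds glutamate receptors opposite the release site. Dlg4 (PSD-95) and Dlg2 (PSD-93) are membrane-associated guanylate kinases that bind receptors and their auxiliary subunits, Dlgap1 and Dlgap3 (GKAP or SAPAP proteins) bind the guanylate kinase domain of the Dlg proteins, and the Shank proteins bind the Dlgap proteins from the cytoplasmic side. Homer2 and Homer3 are long Homer proteins, whose coiled coils join Shank to group I metabotropic glutamate receptors and to calcium channels of the endoplasmic reticulum. Transcripts of several of these genes are carried into dendrites of hippocampal neurons.

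Promoter sequence was examined because the members differ widely in base composition. RefSeq windows on GRCm38.p6 matched 7 of the 9 members (Shank1 and Shank2 had no entry) with 13 start sites, and the 250 bases upstream of each start were searched. The stretches shown are the GC-richer of 2 Homer2 windows and the Shank3 and Dlgap3 windows, 1 member whose regional difference was little changed by a correction for GC content and 2 GC-rich transcripts described below, each printed up to the first base covered by an annotated exon. Homer2 is shown at chr7:81706945-81707175 on the minus strand, Shank3 at chr15:89499358-89499607 on the plus strand, upstream of the gene, and Dlgap3 at chr4:127172630-127172879 on the plus strand, inside the annotated span of the gene, as the Homer2 window is, and outside its exons. Capitals mark GC boxes (GGGCGG) and EGR sites (GCGTGGGCG) on either strand.
Homer2: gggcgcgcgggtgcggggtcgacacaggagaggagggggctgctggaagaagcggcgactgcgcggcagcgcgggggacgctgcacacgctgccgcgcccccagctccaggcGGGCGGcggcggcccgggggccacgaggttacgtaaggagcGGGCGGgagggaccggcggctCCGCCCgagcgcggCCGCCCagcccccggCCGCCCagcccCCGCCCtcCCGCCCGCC
Shank3: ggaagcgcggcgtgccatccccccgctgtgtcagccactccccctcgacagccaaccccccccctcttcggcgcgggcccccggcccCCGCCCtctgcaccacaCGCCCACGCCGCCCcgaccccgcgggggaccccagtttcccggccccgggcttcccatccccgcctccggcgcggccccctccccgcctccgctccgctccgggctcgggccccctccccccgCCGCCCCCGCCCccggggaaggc
Dlgap3: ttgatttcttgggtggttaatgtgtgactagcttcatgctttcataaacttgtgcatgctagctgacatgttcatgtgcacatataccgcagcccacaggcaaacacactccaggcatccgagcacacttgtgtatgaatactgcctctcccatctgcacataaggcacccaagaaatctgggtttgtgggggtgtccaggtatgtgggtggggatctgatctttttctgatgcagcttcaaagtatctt
Over 250 bases the printed Homer2 window was 83.2% G or C with 8 GC boxes, 7 of them in the printed stretch, the Shank3 window 82.4% with 4 GC boxes and 1 EGR site, and the Dlgap3 window 46.8% with no match, against a median of 52.4% over 32851 windows. GC boxes were present in 32.7% of all windows and in 4 of the 13 member windows, and EGR sites in 0.536% and in 1. The CRE half-site TGACG, found in 17.8% of windows, matched 1 member window, at Dlg4, and the full CRE TGACGTCA (1.55%), the AP-1 site TGANTCA (6.75%) and the palindromic glucocorticoid response element (0.00913%) matched none, both strands being read. The second Homer2 window, not printed, was 52% G or C with no GC box.

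In dorsal Homecage hippocampus all 9 genes were well measured, with group means from 1510 estimated counts for Homer3 to 22206 for Dlg4. Levels are given as CPM, counts per 1M counts (M, mega) of the group total over the genes held in all tables, and genes are compared with each other only per kilobase of merged exons. On that scale Dlg4 stood highest in dorsal Homecage at 71.8 CPM per kilobase, followed by Dlgap3 at 57.0, Shank1 at 55.0, Dlgap1 at 38.0 and Shank3 at 35.6. Shank2 followed at 26.5, Homer3 at 18.8, Dlg2 at 15.4 and Homer2 at 10.4. The spread over mice is not held for these levels, so the order of neighbours such as Dlgap3 and Shank1 was not tested. With the longest transcript as length, Dlg4 (150.3 CPM per kilobase) and Homer2 (11.9) kept the ends of the order, while Dlgap1 moved up to 94.8 and Dlg2 to 32.0.

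Across the 12 groups the widest range belonged to Shank1, from 277 CPM in whole Handling to 578 CPM in dorsal Homecage, a ratio of 2.09, and the narrowest to Dlgap1, with a ratio of 1.17. Homer3 spanned a ratio of 1.73, Dlgap3 1.70, Shank3 1.66, Shank2 1.45, Homer2 1.45, Dlg4 1.33 and Dlg2 1.21. Whole hippocampus lay below both of its ends for 6 of 9 members in Homecage, 6 in Handling, 8 in Restraint and 8 in Swim. No table compares whole with dorsal or ventral tissue, so these placements carry no test. The share of all genes placed this way was not computed, so whether the counts are particular to the members is not known. Group totals ran from 19.9M to 25.0M mean estimated counts. In whole tissue the GC-richest tertile of genes less the GC-poorest stood at -0.07 to -0.21 on the log2 scale, each gene taken against its mean over the groups, and the part of this in the placements was not tested.

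**Figure D1:**
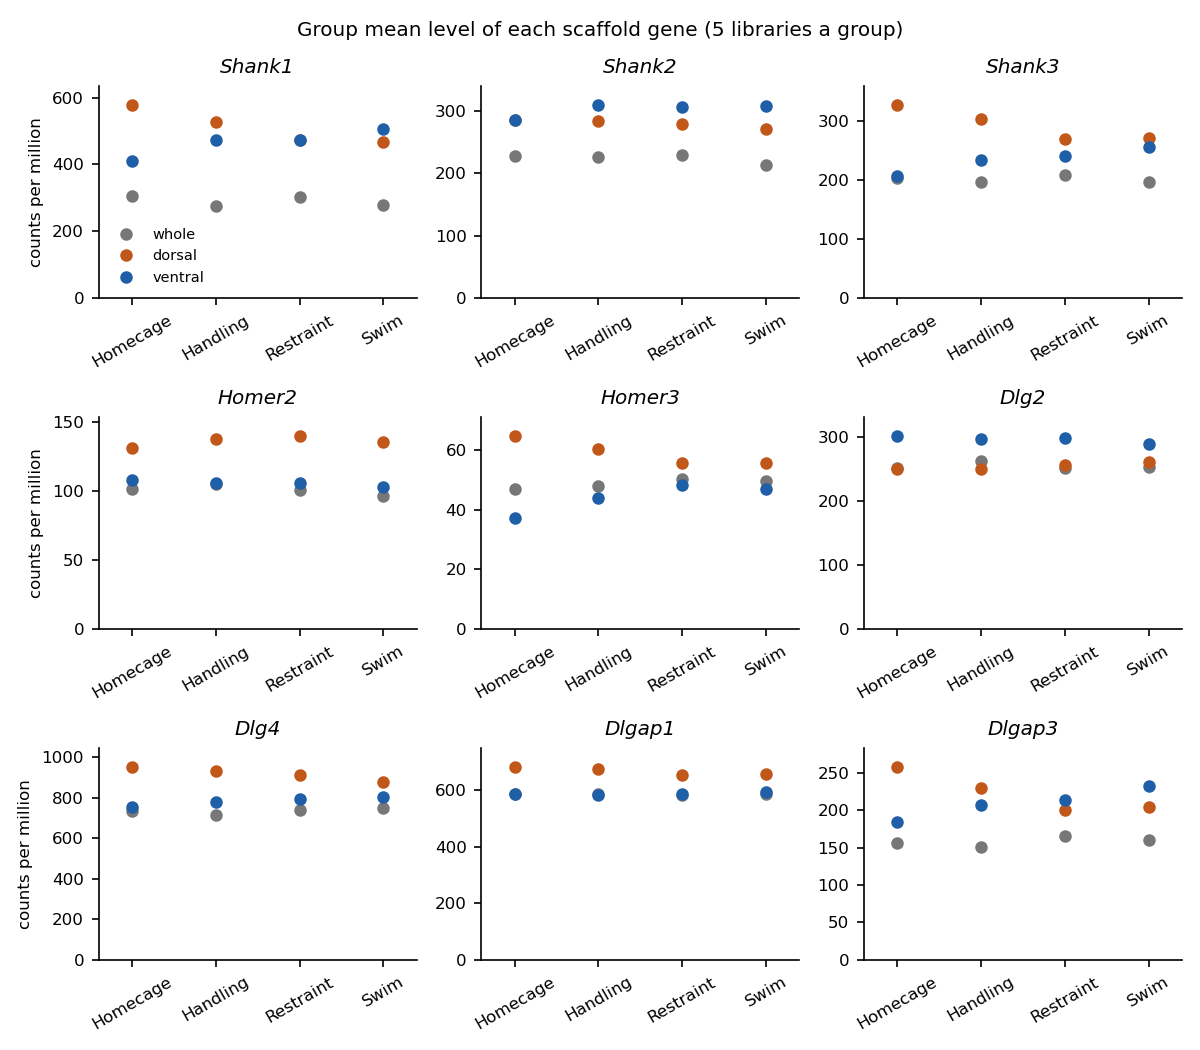
Group mean level (y, CPM, 1 panel per gene, each from 0) of the 9 scaffold genes in Homecage, Handling, Restraint and Swim; each point is the mean of 5 libraries of whole, dorsal or ventral hippocampus, with no error held. Dorsal Shank1 stands at 578 in Homecage and 468 in Swim, a difference that did not pass (adjusted p 0.136). Ventral Shank1 stands at 410.0 and 508. The dorsal point lies above the ventral point in every condition for Homer2, Homer3, Shank3, Dlg4 and Dlgap1.

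Between the ends of the hippocampus in Homecage mice, 7 of the 9 scaffold transcripts were lower ventrally, 1 was higher and 1 did not pass the authors' adjusted p of 0.05. Of all genes compared, 38.4% passed, 20% lower and 18.4% higher, and the members' median log2 fold change was -0.37 against -0.01 over all genes. In bulk tissue, fewer cells of a type and less RNA per cell cannot be told apart. Each error below is a standard error implied by the authors' fold change and p-value.

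The largest regional difference was that of Homer3, the Homer protein known best from cerebellar Purkinje cells and hippocampal pyramidal cells. Its level was 64.7 CPM in dorsal and 37.3 CPM in ventral Homecage hippocampus, and in the authors' deposited table its log2 fold change was -0.83 ± 0.10 (implied SE, 5 libraries a group, adjusted p 6.0e-16). Ventral tissue thus held 0.562 times the dorsal level on the authors' scale. Homer2 was lower ventrally too, at 107 against 131.0 CPM, with a log2 fold change of -0.33 ± 0.08 in the authors' deposited table (adjusted p 2.0e-04).

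Among the Shank genes, which cap the cytoplasmic face of the lattice, 2 of 3 passed. Shank3, the gene deleted in Phelan-McDermid syndrome, stood at 327 CPM dorsally and 207 CPM ventrally, a log2 fold change of -0.70 ± 0.10 in the authors' deposited table (adjusted p 1.1e-11). Shank1 stood at 578 and 410.0 CPM, a log2 fold change of -0.55 ± 0.10 in the authors' deposited table (adjusted p 2.1e-07). Shank2 stood at 285 and 286 CPM, and the authors' deposited table gives a log2 fold change of -0.04 with an adjusted p of 0.629 and an interval from the implied error (95%) of -0.16 to 0.08.

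Of the 4 Dlg and Dlgap genes 3 were lower ventrally and 1 higher. Dlg4, which anchors AMPA receptors through their auxiliary subunits, stood at 951 CPM dorsally and 757 CPM ventrally, a log2 fold change of -0.37 ± 0.06 in the authors' deposited table (adjusted p 4.8e-09). Its paralog Dlg2 was the 1 member higher ventrally, 301 against 250 CPM, with a log2 fold change of 0.23 ± 0.08 in the authors' deposited table (adjusted p 0.0130). Dlgap1 stood at 680.1 and 585 CPM, -0.26 ± 0.06 on the log2 scale in the authors' deposited table (adjusted p 5.9e-05). Dlgap3, the gene whose loss causes compulsive grooming in mice, stood at 257 and 185 CPM, -0.52 ± 0.12 in the authors' deposited table (adjusted p 1.5e-04).

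Transcript GC content separates these genes into groups. Dlgap3 (64.5% G or C, the 99.7th percentile of genes), Shank1 (62.5%), Shank3 (62.1%) and Homer3 (59.2%) are GC-rich, Shank2 (56.0%), Dlg4 (54.7%) and Dlgap1 (51.7%) lie between, and Homer2 (48.6%) and Dlg2 (43.4%) are lowest. Over all genes the ventral against dorsal fold change fell with GC content (Spearman's rho -0.37, across genes, which are not independent replicates). When the trend of fold change on GC content was subtracted, the regional differences of Homer3 (-0.60, adjusted p 1.4e-08), Shank3 (-0.36, 0.00144), Homer2 (-0.35, 9.1e-05), Dlg4 (-0.28, 1.8e-05) and Dlgap1 (-0.23, 4.8e-04) still passed, 5 lower and none higher, where 31.7% of all genes passed. Shank1 (-0.18, 0.142), Dlgap3 (-0.08, 0.665) and Dlg2 (0.15, 0.153) no longer did. Whether base composition or tissue sets those 3 values was not tested.

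**Figure D2:**
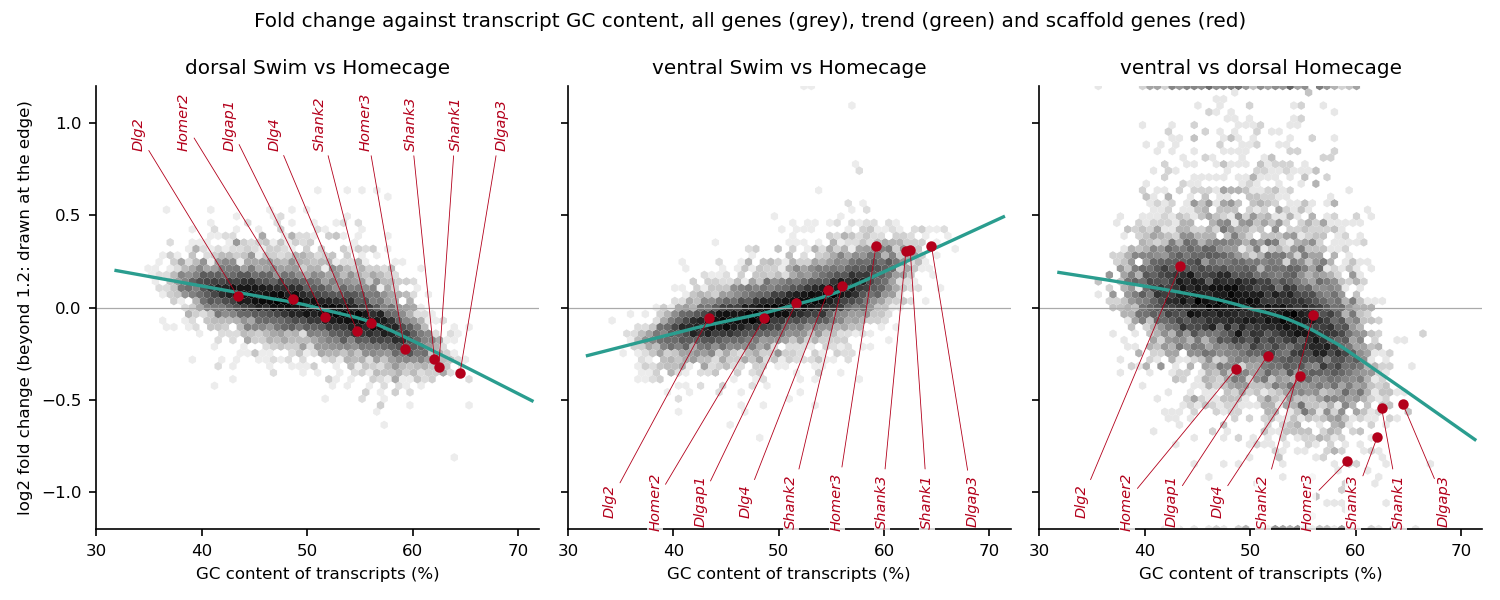
Log2 fold change (y) against transcript GC content in percent (x) for all genes (grey, darker where more genes lie), the lowess trend (green) and the 9 scaffold genes (red, named) in dorsal Swim, ventral Swim and the regional Homecage comparison; values beyond 1.2 are drawn at the edge. The GC-rich Dlgap3, Shank1 and Shank3 lie low in dorsal Swim and high in ventral Swim, near the trend, and in the regional panel Homer3 lies below it.

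Markers of cell types differed between the ends as well, in a comparison where 38.4% of all genes passed, 20% lower and 18.4% higher. Dentate granule cell markers were lower ventrally in 7 of 8 cases and higher in 1 (summed level 770.1 to 841 CPM over the 4 dorsal groups and 359 to 409 over the 4 ventral groups), and oligodendrocyte markers in 9 of 9 (4554 to 5256 against 3061 to 3322 CPM). Pan-neuronal markers were higher in 5 and lower in 2 of 10 (6956 to 7109 against 7806 to 8041 CPM). CA3 pyramidal cell markers were higher in 4 and lower in 3 of 8, with summed levels of 634 to 682 against 1072 to 1173 CPM. Summed CA1 pyramidal cell markers stood at 760 to 823 CPM dorsally and 908 to 982 CPM ventrally, and meningeal fibroblast markers at 61.2 to 102 and 141 to 179 CPM. All 8 ventral hippocampus markers were higher (median log2 fold change 2.25), as the regional labels have it. Of 6 dorsal hippocampus markers 4 were lower and 1 higher. The part of these cell types in the scaffold differences was not tested.

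The same regional contrast can be formed within each treatment by adding the ventral treatment change to the Homecage difference and subtracting the dorsal treatment change. The errors are upper bounds because the Homecage libraries enter more than once. Homer2 was lower ventrally in every condition: its log2 difference was -0.33 in Homecage, -0.41 in Handling (adjusted p 0.00377), -0.43 in Restraint (5.4e-05) and -0.44 in Swim (1.9e-04). With the GC trend subtracted these values were -0.35, -0.41, -0.41 and -0.40 and each still passed (31.7%, 14.5%, 15.3% and 15.9% of genes did). The levels show the same order, 131.0 to 139 CPM in the 4 dorsal groups and 102.5 to 107 CPM in the 4 ventral groups. Mean levels of Homer3, Shank3, Dlg4 and Dlgap1 were lower ventrally in every condition too, so this order is not particular to Homer2. Dlg4 stood at 914 CPM dorsally and 792 CPM ventrally in Restraint, and at 876 and 802 CPM in Swim. The 4 contrasts share libraries and are not independent.

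Homer3 passed in Handling as well (-0.53, adjusted p 0.0277, but 0.0658 with the GC trend subtracted), and no other member passed in a treated condition, so that 2 members passed in Handling, 1 in Restraint and 1 in Swim, against 14.5%, 15.3% and 18.1% of all genes. Shank3 stood at -0.44 in Handling, -0.20 in Restraint and -0.12 in Swim, Shank1 at -0.21, -0.02 and 0.09, and Dlgap3 at -0.21, 0.05 and 0.16. Shank1 stood at 473 CPM dorsally and 475 CPM ventrally in Restraint, against 578 and 410.0 in Homecage. When the variance of the shared Homecage group was taken off the error, under the assumption of equal variance in the groups, 5, 6 and 5 members passed in Handling, Restraint and Swim. The share of all genes passing with that smaller error was not computed, so these counts are not set against it.

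**Figure D3:**
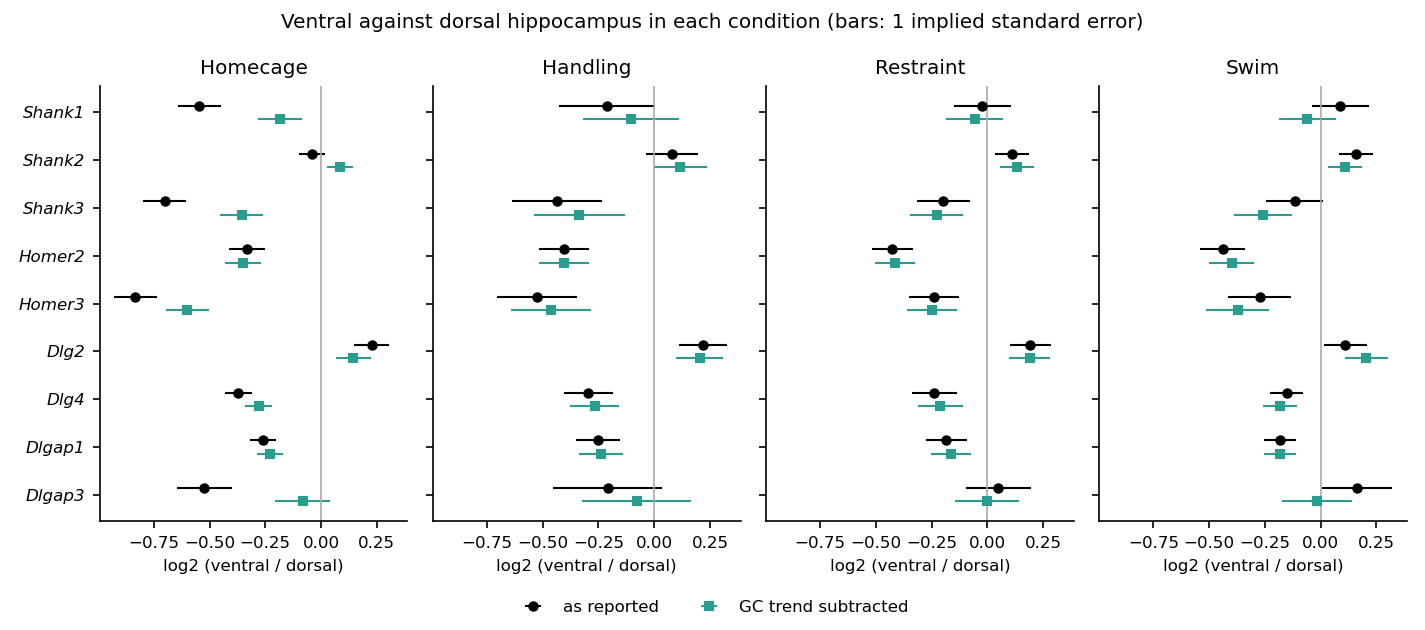
Log2 ratio of ventral to dorsal hippocampus (x) for the 9 scaffold genes (y) in Homecage, Handling, Restraint and Swim, as reported or derived from the authors' values (black) and with the GC trend subtracted (green); bars are 1 implied standard error. Homer2 stays between -0.33 and -0.44 in all 4 panels, whereas Shank1 moves from -0.55 to 0.09.

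After treatment the scaffold genes changed little. Over 9 treatment tables the 81 member values ran from -0.35 to 0.38 on the log2 scale, fold changes of 0.783 to 1.30, and 4 of them passed in the authors' deposited tables, all in ventral hippocampus and all higher. The 3 tables of a region share their Homecage libraries, so their values are not independent.

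In ventral Restraint Homer3 rose from 37.3 to 48.4 CPM, a log2 fold change of 0.38 ± 0.09 in the authors' deposited table (adjusted p 0.00469). It was the 1 member of 9 to pass, where 2.39% of genes passed and 1.48% rose. With the GC trend subtracted the value was 0.29 (adjusted p 0.0808), no longer past the test, where 1.75% of genes were. Homer3 stood at 43.8 CPM in ventral Handling and 46.9 CPM in ventral Swim, where the authors' deposited tables give 0.20 and 0.33 (adjusted p 0.831 and 0.0622).

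In ventral Swim 3 members rose, where 6.94% of genes passed and 4.65% rose. Shank1 went from 410.0 to 508 CPM, 0.31 ± 0.08 on the log2 scale in the authors' deposited table (adjusted p 0.00647). Shank3 went from 207 to 256 CPM, 0.30 ± 0.09 in the authors' deposited table (adjusted p 0.0170), and Dlgap3 from 185 to 233 CPM, 0.33 ± 0.10 in the authors' deposited table (adjusted p 0.0306). These are the 3 members richest in GC. Over all genes the ventral Swim fold changes rose with GC content (rho 0.70), and after that trend was subtracted Shank1 stood at 0.05, Shank3 at 0.06 and Dlgap3 at 0.02 (adjusted p 0.988, 0.988 and 0.993), with 0.807% of genes passing. The members' median was 0.12 as deposited and 0.03 after subtraction.

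The other ventral members did not pass in Swim. In the authors' deposited table Shank2 stood at 0.12 (adjusted p 0.0889), Dlg4 at 0.09 (0.227), Dlgap1 at 0.02 (0.789), Dlg2 at -0.05 (0.482) and Homer2 at -0.06 (0.511). Ventral Handling gave no member past the test, where 0.856% of genes passed, with values from -0.02 for Homer2 to 0.20 for Homer3 in the authors' deposited table. Unadjusted p-values lay under 0.05 for 5 members in ventral Restraint, 5 in ventral Swim and none in ventral Handling. The share of all genes under that unadjusted threshold was not computed, so these counts are not set against it.

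In dorsal hippocampus no member passed after any treatment, where 0.125%, 0.616% and 0.447% of genes passed in Handling, Restraint and Swim. The GC-rich members had the lowest values. In the authors' deposited tables Dlgap3 had -0.35 in Restraint and -0.35 in Swim (adjusted p 0.0819 and 0.192), and its level was 257 CPM in Homecage and 230.1, 200.9 and 204.0 CPM in Handling, Restraint and Swim. Shank1 had -0.30 and -0.32 (adjusted p 0.183 and 0.136) in the authors' deposited tables, at 578, 528, 473 and 468 CPM over the same 4 groups. Shank3 had -0.28 and -0.28 (0.112 and 0.204) and Homer3 -0.21 and -0.22 (0.103 and 0.186) in the authors' deposited tables. Unadjusted p-values lay under 0.05 for these 4 in Restraint, and for these 4 with Dlg4 (-0.13, adjusted p 0.401 in the authors' deposited table) in Swim. For the dorsal tables too, the share of all genes under that unadjusted threshold was not computed. Fold changes of all genes fell with GC content in the dorsal tables (rho -0.34, -0.47 and -0.60), and with that trend subtracted the 4 genes lay between -0.07 and -0.04 in Restraint and Swim.

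In whole hippocampus no member passed, where 0.395%, 0.541% and 0.395% of genes passed in Handling, Restraint and Swim, and no unadjusted p-value of a member lay under 0.05. The values in the authors' deposited tables ran from -0.13 for Shank1 in Handling to 0.10 for Homer3 in Restraint. Homer3 stood at 47.0, 47.9, 50.3 and 49.5 CPM over Homecage, Handling, Restraint and Swim, and Dlg4 at 734, 715, 741 and 751 CPM. Between pairs of treatments in a region, none of the 81 member differences passed, with values from -0.19 to 0.18 on the log2 scale and a lowest unadjusted p of 0.295, the errors again being upper bounds because the Homecage libraries are shared. Of all genes 0.0294%, 0.00734% and 0% passed in whole tissue for Restraint minus Handling, Swim minus Handling and Swim minus Restraint, 0.0147%, 0.0221% and 0% in dorsal and 0.139%, 0.117% and 0.0073% in ventral tissue.

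**Figure D4:**
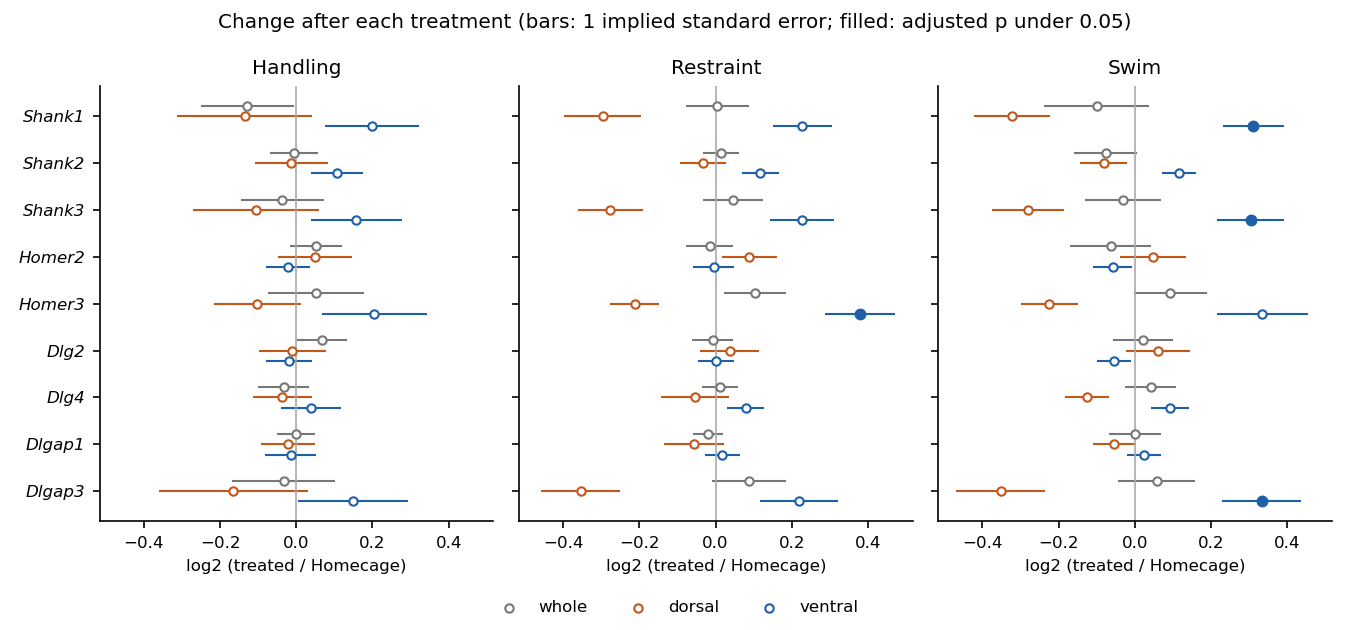
Log2 change from Homecage (x) of the 9 scaffold genes (y) after Handling, Restraint and Swim in whole (grey), dorsal (orange) and ventral (blue) hippocampus, from the authors' deposited tables; bars are 1 implied standard error and filled points passed an adjusted p of 0.05. The 4 filled points are ventral Homer3 in Restraint and ventral Shank1, Shank3 and Dlgap3 in Swim, at 0.30 to 0.38.

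The ventral and dorsal changes were then compared directly. After Restraint the ventral change exceeded the dorsal change for 4 members, where 1.98% of genes passed and 1.75% were higher: Homer3 by 0.59 on the log2 scale (95% interval 0.37 to 0.81, adjusted p 0.00184), Dlgap3 by 0.57 (0.0152), Shank1 by 0.52 (0.0109) and Shank3 by 0.50 (0.00981). After Swim 5 members passed, where 10.2% of genes did and 6.93% were higher: Dlgap3 by 0.68 (0.38 to 0.99, adjusted p 0.00247), Shank1 by 0.63 (0.000695), Shank3 by 0.58 (0.00199), Homer3 by 0.56 (0.00458) and Dlg4 by 0.22 (0.0430, but 0.0542 with total-count scaling). Handling gave none, with 0.0889% of genes passing and an adjusted p of 0.998 for each member. With the GC trend of each table subtracted no member passed after Handling, Restraint or Swim, where 0.0815%, 0.037% and 0.2% of genes did: Homer3 in Restraint kept the largest value, 0.35 (adjusted p 0.266), and Shank1 in Swim stood at 0.12 (0.999). Homer2 and Dlg2, low in GC, stood at -0.11 and -0.12 in Swim as deposited (adjusted p 0.517 and 0.444).

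Base composition moved with group over all genes. The same difference between the GC-richest and GC-poorest tertile of genes was 0.18, 0.10, 0.05 and 0.01 in dorsal Homecage, Handling, Restraint and Swim, and -0.05, 0.06, 0.04 and 0.16 in ventral tissue. Across the 9 members the log2 fold change followed GC content with a rho of -0.98 in dorsal Swim and 0.88 in ventral Swim, a description over genes that share their libraries. Choroid plexus markers reached 2134 CPM in dorsal Restraint and 2024 CPM in ventral Handling against 180 to 329 CPM elsewhere, and no member passed against Homecage in either of these 2 groups. Dorsal Restraint also enters the Restraint difference between regions, in which 4 members passed, and the ventral against dorsal contrast within Restraint, in which 1 did, and ventral Handling enters those for Handling, in which 0 and 2 passed. The part of these markers in those values was not tested. Summed oligodendrocyte markers stood at 4554, 4571, 4916 and 5256 CPM in dorsal Homecage, Handling, Restraint and Swim and at 3061, 3317, 3322 and 3158 CPM in the ventral groups. Against Homecage 1 of 9 was higher in dorsal Swim, 1 in ventral Restraint and 1 in ventral Swim. Of all genes 0.359%, 1.48% and 4.65% were called higher there. For the ventral minus dorsal difference 0 of 9 passed after Restraint, where 1.98% of all genes did. After Swim 2 of 9 passed, both lower, where 10.2% of all genes passed and 3.29% were lower. The part of the oligodendrocyte markers in the scaffold differences was not tested. Pan-neuronal markers passed in 0 of 10 cases in ventral Swim, where 6.94% of all genes passed.

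Homer1, the remaining Homer gene, is induced by synaptic activity as the short form Homer1a, which lacks the coiled coil and uncouples the long Homer proteins. The gene-level counts do not separate its forms. It stood at 92.3, 112, 108 and 100.5 CPM in ventral Homecage, Handling, Restraint and Swim, and in the authors' deposited tables it rose by 0.28 ± 0.06 in ventral Handling (adjusted p 4.6e-04) and by 0.24 ± 0.06 in ventral Restraint (0.00178). Ventral Swim had 0.13 in the authors' deposited table (adjusted p 0.103), and 0.24 (9.3e-04) with the GC trend subtracted, Homer1 being poor in GC at 42.0%. The ventral Handling, ventral Restraint, dorsal and whole values of Homer1 are given without that subtraction. Dorsal values in the authors' deposited tables were 0.25, 0.26 and 0.30 and whole values 0.29, 0.20 and 0.08 for Handling, Restraint and Swim, none past the test (adjusted p 0.289 or higher). In ventral Handling neither long-Homer member passed, with Homer2 at -0.02 and Homer3 at 0.20 in the authors' deposited table. In ventral Restraint Homer3 rose by 0.38 (adjusted p 0.00469) in the authors' deposited table, a call lost when the GC trend was subtracted. The Homer3 change in ventral Restraint less that in ventral Handling was 0.17 and did not pass (unadjusted p 0.295, test of the difference).

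Other genes of the synapse were described from lists. In ventral Swim, where 6.94% of all genes passed and 4.65% rose, 1 of 5 other genes of the same families rose, Dlgap4 (0.21 in the authors' deposited table, adjusted p 0.0306), and 9 of 40 other postsynaptic scaffolds and adaptors rose with none lower (median 0.05), among them Psd at 0.38, Baiap2, an actin regulator of spines, at 0.24, Begain at 0.25 and Lzts3 at 0.19 in the authors' deposited table. Of 26 glutamate receptor and auxiliary subunits 7 rose and 1 fell, with Grin1, the obligatory NMDA receptor subunit, at 0.20, Grik5 at 0.27, Cacng8 at 0.24 and Cnih2 at 0.31 in the authors' deposited table. Adhesion genes gave 2 higher and 1 lower of 28 (Adgrb1 0.33, Ptprs 0.19 and Il1rapl1 -0.39 in the authors' deposited table), presynaptic active zone genes 2 higher of 22 (Apba3 0.47, Bsn 0.25 in the authors' deposited table) and inhibitory postsynapse genes 1 of 5 (Iqsec3, 0.14 in the authors' deposited table). The adhesion and presynaptic counts lie near the share over all genes, and no list was tested against it. None of these calls was left after the GC trend was subtracted, when Homer1 was the 1 gene of the lists to pass.

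Between regions in Homecage the same lists differed in both directions, where 38.4% of all genes passed, 20% lower and 18.4% higher (31.7% with the GC trend subtracted). Of the 40 other postsynaptic scaffolds and adaptors 21 were lower ventrally and 6 higher (median -0.23, and 19 and 8 with the GC trend subtracted), led in the authors' deposited table by Camk2b, a subunit of the calcium/calmodulin kinase, at -0.89, Kalrn at -0.76, Ddn (dendrin) at -1.04 and Iqsec2 at -0.72. Of the family genes Dlg3 (-0.41) and Dlgap2 (-0.43) were lower and Dlg1 (0.45) higher in the authors' deposited table. Receptors and auxiliary subunits gave 12 lower and 7 higher of 26 (median -0.17), with Cacng5 at -1.36, Cnih2 at -0.96, Cacng8 at -0.82 and Gria4 at 0.80 in the authors' deposited table. Presynaptic active zone genes split into 7 higher and 8 lower of 22, from Unc13c, a priming factor, at 2.02 and Rims3 at 1.08 to Rimbp2 at -0.68 and Unc13a at -0.52 in the authors' deposited table. Adhesion genes gave 11 higher and 8 lower of 28, and of 5 inhibitory postsynapse genes none passed as deposited.

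Genes that followed each member most closely over the 12 group means were found by Pearson's r of log2 CPM among 13128 genes, a description in which all points share libraries and GC content. Dlg4 was tracked by Ppp1r9b (spinophilin, r 0.996) and Gtpbp1 (0.99), and Homer3 by Rasl10a (0.99) and the neuronal factor Neurod2 (0.975). Dlgap1 was tracked by Kalrn (0.99) and Lmo7 (0.99), and Dlg2 by the dendritic protein gene Map2 (0.99) and the receptor gene Ntrk2 (0.99). Shank1 had Mapk8ip3 and Prrc2a, Shank2 Gm15800 and Ubr4, Shank3 Ankrd13b and Agap2, Homer2 Ptprj and Nhsl2, and Dlgap3 Ehmt2 and Pex6. Among the members Shank1 and Dlgap3 varied most alike (r 0.97), Dlg4 followed Shank3 (0.96), Dlgap1 (0.95) and Homer2 (0.91), and Dlg2 ran opposite to Homer3 (-0.72). The 8 partners of Shank1, Shank3, Homer3 and Dlgap3 had from 56.3% (Mapk8ip3) to 63.0% (Agap2) G or C. Those of Dlg4, itself at 54.7%, had 60.2% (Ppp1r9b) and 56.2% (Gtpbp1). Those of Shank2, Homer2, Dlg2 and Dlgap1 had from 44.0% (Map2) to 54.5% (Ubr4).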

How the data were processed

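The deposited tables compare 2 groups each. Per the file headers they give the authors' mean estimated count of either group, and per the file headers the deposited fold change is a ratio of the groups and the deposited log2 value its binary logarithm. Each p-value and adjusted p is the authors' own, deposited per gene. The aligner, counting program, test and model behind them are not named in the labels or headers. Bowtie 0.12.2 and the assembly mm8 appear, with no role, in the submitters' processing notes. No values of single libraries were used here, so the planned count tests did not apply and calls are the authors' adjusted p at 0.05.

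Each table kept 13610 to 13784 genes once 144 to 148 repeats were removed, with group totals of 19.9M to 25.0M mean estimated counts (M, mega). Precision comes from 5 libraries a group, and PCR duplication is unknown. An implied standard error is the log2 fold change over the normal quantile of its p-value. Differences between tables were divided by the root of the summed squared errors and compared with a normal distribution, two-sided. The resulting p-values were adjusted by Benjamini-Hochberg over all genes. The code was run on simulated tables that shared no libraries and whose p-values came from the same normal formula. How well implied errors fit the authors' test was therefore not tested. The series text gives 5 mice a condition. GC content and exon length came from GENCODE M21 (GRCm38), for at least 99.76% of genes, and the lowess trend used a fraction of 0.3. Promoter windows are RefSeq's on GRCm38.p6. Python 3.11.15, pandas 2.3.3, scipy 1.17.1, statsmodels 0.14.6 and matplotlib 3.10.9 were used.

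The members and lists were chosen with earlier results of these data known. Named genes are all 9 members, up to 4 genes per list with the lowest adjusted p, always Homer1, and the 2 genes most alike per member with at least 1 CPM in every group. Alternatives were trends on GC content and length, total-count scaling, a minimum mean of 100 counts and an adjusted p of 0.01. Regional contrasts within treatments and the removal of shared Homecage variance were added after seeing the data.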

Additional observations from a re-analysis of the deposited data

Results flagged for a closer look

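For 9 values the change from Homecage differed between ventral and dorsal hippocampus in a test of the difference itself, ventral minus dorsal on the log2 scale. After Restraint these were Homer3 at 0.59, Dlgap3 at 0.57, Shank1 at 0.52 and Shank3 at 0.50. After Swim they were Dlgap3 at 0.68, Shank1 at 0.63, Shank3 at 0.58, Homer3 at 0.56 and Dlg4 at 0.22. The ventral value of each gene was above 0 and the dorsal value below 0. Restraint and Swim values share the same dorsal and ventral Homecage groups, so the 9 are not independent results. Those groups also give the regional difference in Homecage. The fold changes of all genes rose with transcript GC content in the ventral tables and fell with it in the dorsal ones, and no value of the 9 passed once that trend was subtracted.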

How the results depend on the processing

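Subtracting the GC trend, alone or followed by the trend on length, took the members past the test from 1 to 0 in ventral Restraint, from 3 to 0 in ventral Swim, from 8 to 5 between regions in Homecage, from 4 to 0 for the Restraint and from 5 to 0 for the Swim difference between regions, and from 2 to 1 between regions in Handling. At an adjusted p of 0.01 there were 1 in ventral Swim, 2 for the Restraint difference and 1 between regions in Handling. Dlg2 between regions in Homecage (0.0130) and Dlg4 for the Swim difference (0.0430) missed that threshold too. Counts are listed here only where they moved by over 1.5 times. The length trend alone gave 4 between regions in Handling and 2 in Swim. Without the shared Homecage variance 5, 6 and 5 passed between regions in Handling, Restraint and Swim. Total-count scaling and a minimum mean of 100 counts moved no such count by over 1.5 times, and total-count scaling took the Dlg4 difference in Swim to 0.21 (adjusted p 0.0542). No direction of a called value turned under these settings. The share of all genes passing was computed only as deposited and with the GC trend alone subtracted. Over all genes the GC step took calls from 955 to 111 in ventral Swim, from 267 to 5 for the Restraint difference and from 1383 to 27 for the Swim difference. The share of rises among ventral Swim calls was 640 of 955 as deposited and 76 of 111 after it. Why calls were lost was not tested.

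No paired analysis was possible because group means carry no replicate numbers, and for the same reason leaving out each replicate and the fit with replicates as a block were not run. Group means bear no spread over mice, and implied errors are approximate. Each member had a mean of at least 932 estimated counts in every group.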
